A study of Mus musculus with 7 samples.

Results

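Transcripts of 10 enzymes that detoxify quinones, carbonyls and epoxides were followed in heart tissue of Nrf2 transgenic mice. The enzymes were chosen by name, as the quinone reductases Nqo1 and Nqo2, the carbonyl reductases Cbr1, Cbr3 and Cbr4, the alkenal and prostaglandin reductases Ptgr1 and Ptgr2, the epoxide hydrolases Ephx1 and Ephx2, and the flavoprotein Por. All 10 were among the 14637 genes tested. RNA came from flash-frozen heart tissue of male C57BL/6J mice, 4 non-transgenic (NTG) littermates and 3 mice carrying full-length mouse Nrf2 (mNrf2-TG). The transgene is driven by the αMHC promoter, which is active in cardiomyocytes, while the lysate holds every cell type of the tissue taken. There was 1 library per mouse, and the libraries carry the numbers 1 to 4 (NTG) and 17 to 19 (mNrf2-TG). The labels give 6 months for the mNrf2-TG mice and no age for the NTG mice, the methods give 6–7 months and the series text gives 7–8 months, so a difference in age between the groups cannot be told apart from genotype.

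Quinones, reactive carbonyls and epoxides form in the heart from lipid peroxidation, from catecholamine oxidation and from drugs such as the anthracyclines, and they bind to proteins and DNA. Most of the reductases use NADPH or NADH, and they turn quinones into hydroquinones, carbonyls into alcohols or unsaturated carbonyls into saturated ones. The hydrolases add water to epoxides to give diols. Nrf2 is a transcription factor that binds the antioxidant response element (ARE) as a dimer with a small Maf protein, and Nqo1 is a classical target whose promoter has long served to study this element.

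The libraries held between 6534684 and 8405857 counted reads, and these totals limit the precision for genes with few reads. Nfe2l2, the gene of Nrf2, was checked first. Its read counts were 1220, 1392, 729 and 1055 in NTG and 11181, 10912 and 12839 in mNrf2-TG (Log2FC 3.37, SE 0.18, edgeR adjusted p = 2.96e-06), so the labels and the transgene matched. Because the transgene carries the mouse sequence, its reads and those of the native gene cannot be told apart. Of 8 cardiomyocyte markers, all of which were detected, 3 fell (Tnni3, Myl2 and Pln), and the markers summed to 80500–86200 CPM (counts scaled to a common library total) in NTG and 68800–72300 in mNrf2-TG. Of 7 fibroblast markers 5 rose (1120–1450 against 1630–1750 CPM) and of 6 macrophage markers 5 rose (118–147 against 213–318 CPM), with no marker of either list at 0. Of 6 endothelial markers 1 rose and 2 fell (829–909 against 780–815 CPM), and of 6 smooth muscle and pericyte markers 1 fell (484–1460 against 1010–1510 CPM). The wide NTG range of the latter came from Acta2, with 893, 1213, 7707 and 1894 reads in NTG and 8693, 8390 and 6026 in mNrf2-TG. The part of these cell types in the values below was not tested. In bulk tissue, fewer cells of a type and less RNA per cell cannot be told apart.

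Of the 10 enzymes, 4 rose in mNrf2-TG hearts (Nqo1, Ephx1, Ptgr1 and Cbr1), 1 fell (Nqo2), and 5 did not pass an adjusted p under 0.05 (Cbr3, Cbr4, Ptgr2, Ephx2 and Por). Over all genes tested, 17.2% passed in either direction, 8.48% higher and 8.73% lower. The median Log2FC of the 10 enzymes was 0.24, beside 0.0012 for all genes. A more than 2-fold change with an edgeR p under 0.05 before adjustment, thresholds that the study set on DESeq2 p-values, was found for Nqo1 and Ephx1, that is for 2 of 10 enzymes and for 5.65% of all genes. The mNrf2-TG libraries did not overlap the NTG libraries for 6 of the enzymes, the 5 called and Ptgr2, and for 29.7% of all genes.

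**Figure D1:**
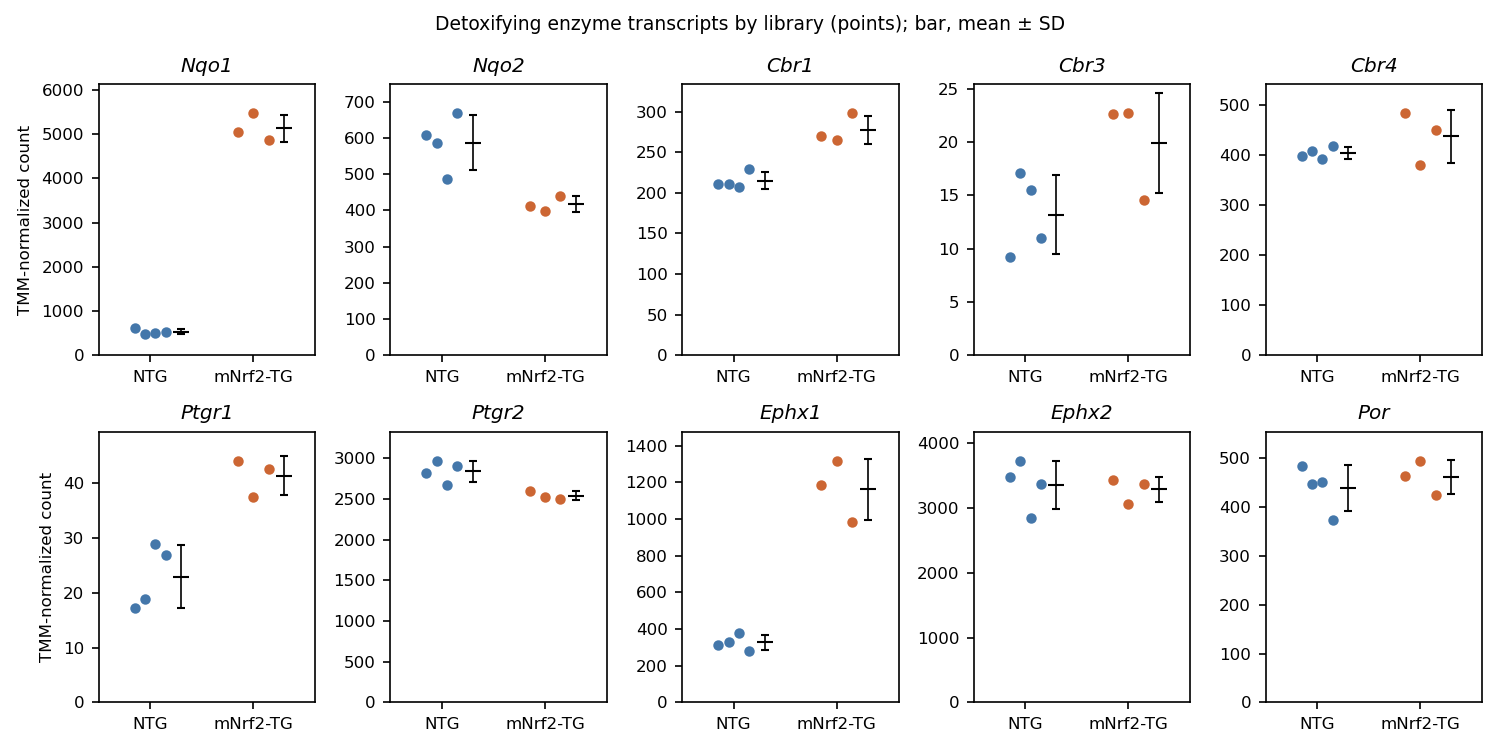
Points are TMM-normalized read counts in each library (vertical axis, from 0), with NTG and mNrf2-TG side by side in a panel for each enzyme, and bars give the mean ± SD. The widest gap between groups is that of Nqo1, from 480–614 in NTG to 4879–5468 in mNrf2-TG, whereas the points of Ephx2, Por, Cbr3 and Cbr4 overlap.

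Nqo1 encodes NAD(P)H quinone dehydrogenase 1, a cytosolic flavoenzyme that reduces quinones straight to hydroquinones and so bypasses the reactive semiquinone. It lies on chr8:107388225-107403206, minus strand (GRCm38). Its TMM-normalized counts were 614, 480, 496 and 521 in NTG and 5048, 5468 and 4879 in mNrf2-TG. Every mNrf2-TG library was far above every NTG library, and the spread within each group was small beside the gap. The mean went from 528 ± 59.9 (SD, n = 4) to 5132 ± 303 (SD, n = 3), a 9.73-fold difference with a 95% confidence interval of 8.4 to 11.3 (Log2FC 3.28, SE 0.095, edgeR adjusted p = 2.86e-08). Of all genes tested, 53 had a larger Log2FC, and Nqo1 ranked 5 by p-value.

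Nqo2 encodes the close relative of Nqo1, which also reduces quinones but takes its electrons from dihydronicotinamide riboside and hardly from NADPH. It lies on chr13:33964687-33988443, plus strand. Its normalized counts were 609, 588, 486 and 668 in NTG and 413, 399 and 441 in mNrf2-TG. All 3 mNrf2-TG libraries were below the lowest NTG library, NTG 3, whose value was closest to theirs. Nqo2 fell from 588 ± 76.0 (SD, n = 4) to 418 ± 21.4 (SD, n = 3), to 0.711 of the NTG level (Log2FC -0.49, SE 0.11, edgeR adjusted p = 0.0128). The call did not hold without mNrf2-TG 17 (adjusted p = 0.0512) or without mNrf2-TG 18 (adjusted p = 0.0517), while the Log2FC was then -0.48 and -0.46. The whole span of Nqo2 lies opposite Serpinb6a, a protease inhibitor gene on the minus strand, and 762 exonic bases are shared. Serpinb6a rose (Log2FC 0.43, SE 0.12, edgeR adjusted p = 0.0373), and since the use of strand in counting is not given in the sources used here, the share of reads that could have passed between the genes is unknown.

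The pair was also compared within libraries. A rise of Nqo1 alone would raise this ratio too, so the ratio does not test the fall of Nqo2. The log2 ratio of Nqo1 to Nqo2 counts was 0.011, -0.293, 0.03 and -0.359 in NTG libraries and 3.609, 3.775 and 3.466 in mNrf2-TG libraries, so that near-equal counts turned into a large excess of Nqo1. The ratio was 13.6-fold higher in mNrf2-TG (exact permutation test over the 35 splits of 7 libraries, two-sided p = 0.0286, the smallest it can give, adjusted p = 0.0476 over 5 pairs). Per kilobase of exon, Nqo1 was 2.34 times Nqo2 in NTG and 31.9 times Nqo2 in mNrf2-TG.

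Promoter sequence just upstream of the RefSeq start is shown for Nqo1 and Ephx1, the enzymes with the largest increases, and for Nqo2, the one that fell. The windows are chr8:107403206-107403455 (minus strand), chr1:181017570-181017819 (minus strand) and chr13:33964409-33964658 (plus strand) of GRCm38.p6. Each is written 5′ to 3′ up to the base before the start. Capitals mark matches to the TATA box motif (TATAAA) or the GC box motif (GGGCGG, or CCGCCC on the opposite strand), wherever they lie.
Nqo1: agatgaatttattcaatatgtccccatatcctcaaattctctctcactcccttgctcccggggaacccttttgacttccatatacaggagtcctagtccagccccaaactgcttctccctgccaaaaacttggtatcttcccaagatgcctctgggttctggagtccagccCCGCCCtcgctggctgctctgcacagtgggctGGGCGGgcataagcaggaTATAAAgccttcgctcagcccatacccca
Ephx1: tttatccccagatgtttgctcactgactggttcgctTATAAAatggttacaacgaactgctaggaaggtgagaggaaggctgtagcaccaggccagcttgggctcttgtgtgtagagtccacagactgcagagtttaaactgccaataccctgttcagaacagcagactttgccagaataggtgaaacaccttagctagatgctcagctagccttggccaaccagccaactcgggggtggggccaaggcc
Nqo2: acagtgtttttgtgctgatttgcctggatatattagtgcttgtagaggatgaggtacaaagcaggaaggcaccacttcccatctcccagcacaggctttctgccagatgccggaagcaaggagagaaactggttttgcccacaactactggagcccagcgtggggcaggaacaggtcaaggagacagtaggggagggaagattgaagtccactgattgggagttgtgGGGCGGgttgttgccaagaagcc
In the Nqo1 window the TATA box lies 29 to 24 bases upstream of the start, with GC boxes 47 to 42 bases upstream and, on the opposite strand, 79 to 74 bases upstream. The Ephx1 window has its TATAAA 214 to 209 bases upstream, much farther from the start than in Nqo1, and whether it acts as a TATA box was not tested. This window lies inside the longer GENCODE span of the gene. Nqo2 has a GC box 23 to 18 bases upstream and no TATAAA, and RefSeq holds another start for it that is not shown. Windows of the same length were found for 9 of the 10 enzymes. The ARE core, searched on both strands as TGACNNNGC, was in 0 of these 9 and in 13.7% of 11656 tested genes with a window. The AP-1 site TGANTCA, which resembles the ARE, was in 0 of 9 and in 5.88% of tested genes. TATAAA was in 2 of 9 (Nqo1 and Ephx1) against 8.97% of tested genes, and GGGCGG was in 5 of 9 (Nqo1, Nqo2, Cbr3, Ptgr1 and Por) against 60.3%. Elements farther upstream lie outside these windows.

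The carbonyl reductases are NADPH-dependent enzymes of the short-chain dehydrogenase family. Cbr1, cytosolic carbonyl reductase 1, acts on quinones, prostaglandins and lipid aldehydes and reduces doxorubicin to its alcohol. It lies on chr16:93605853-93610505, plus strand, and its normalized counts were 212, 212, 207 and 230 in NTG and 270, 265 and 298 in mNrf2-TG. The groups did not overlap, and the NTG libraries were close together. Cbr1 rose 1.29-fold, from 215 ± 10.2 (SD, n = 4) to 278 ± 17.6 (SD, n = 3; Log2FC 0.37, SE 0.085, edgeR adjusted p = 0.0167). Without mNrf2-TG 19, its highest library, the Log2FC was 0.32 and the adjusted p 0.0645.

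Cbr3, encoded beside Cbr1 on chr16:93683215-93690990, is its closest relative and has a narrower range of substrates. It was near the lower end of detection, with 8, 19, 15 and 11 reads in NTG and 21, 23 and 16 in mNrf2-TG. The groups overlapped through mNrf2-TG 19 (Log2FC 0.57, 95% confidence interval -0.12 to 1.26, edgeR adjusted p = 0.235). At this depth a doubling and no difference both lay inside the interval. Cbr4 (chr8:61487734-61506694) is a mitochondrial reductase that takes part in mitochondrial fatty acid synthesis and also reduces quinones. It had 345, 452, 379 and 419 reads in NTG and 448, 385 and 494 in mNrf2-TG. Its normalized counts averaged 403 ± 11.6 (SD, n = 4) in NTG and 437 ± 52.4 (SD, n = 3) in mNrf2-TG, and the groups overlapped, with mNrf2-TG 18 the lowest of all libraries (Log2FC 0.12, 95% confidence interval -0.086 to 0.32, edgeR adjusted p = 0.417).

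Compared within libraries, Cbr1 gained on Cbr4 but not detectably on Cbr3. The log2 ratio of Cbr1 to Cbr4 averaged -0.905 ± 0.035 (SD, n = 4) in NTG and -0.647 ± 0.167 (SD, n = 3) in mNrf2-TG, a 1.2-fold higher ratio (exact permutation p = 0.0286, adjusted p = 0.0476). It was -0.905, -0.942, -0.913 and -0.858 in NTG libraries and -0.835, -0.516 and -0.59 in mNrf2-TG libraries, so mNrf2-TG 17 lay just above the highest NTG library. The adjusted p of 0.0476 needs 3 pairs at the smallest p, so for the other pairs it also rests on this narrow gap. For Cbr1 to Cbr3 the difference in the log2 ratio was -0.222 (exact permutation p = 0.514). Of 50-base stretches in the exons of Cbr1, 1.85% occur in another annotated gene, nearly all in the predicted gene Gm5678, and 1 stretch is shared with Cbr3.

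Ptgr1 and Ptgr2 are medium-chain reductases that use NADPH to saturate the double bond of unsaturated carbonyls. Ptgr1 inactivates leukotriene B4 and reduces alkenals from lipid peroxidation such as hydroxynonenal. It lies on chr4:58965439-58987119, minus strand, and had few reads, 15, 21, 28 and 27 in NTG and 41, 38 and 47 in mNrf2-TG. All mNrf2-TG libraries were above all NTG libraries, among which NTG 3 and NTG 4 were higher than NTG 1 and NTG 2. Ptgr1 rose 1.8-fold, from 23.0 ± 5.76 (SD, n = 4) to 41.4 ± 3.51 (SD, n = 3) normalized counts (Log2FC 0.84, SE 0.23, edgeR adjusted p = 0.0303). The call held without NTG 3 or NTG 4 and was lost without any of the other 5 libraries, with adjusted p of 0.0727 without NTG 1, 0.0812 without NTG 2, 0.0972 without mNrf2-TG 17, 0.0581 without mNrf2-TG 18 and 0.0831 without mNrf2-TG 19.

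Ptgr2 (chr12:84285232-84315832, plus strand) reduces keto prostaglandins and was far more abundant. Its normalized counts were 2820, 2972, 2677 and 2906 in NTG and 2604, 2522 and 2496 in mNrf2-TG. All mNrf2-TG libraries lay just below the lowest NTG library, NTG 3. The Log2FC was -0.16 (95% confidence interval -0.31 to -0.020), with an unadjusted edgeR p of 0.0291 and an adjusted p of 0.109, so Ptgr2 did not pass the threshold. The log2 ratio of Ptgr1 to Ptgr2 was higher by 1.03 in mNrf2-TG (exact permutation p = 0.0571, adjusted p = 0.0714). Ptgr2 shares 1896 exonic bases with the noncoding RNA Gm47484 on the opposite strand.

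Ephx1 encodes microsomal epoxide hydrolase, the enzyme of the endoplasmic reticulum that turns xenobiotic epoxides into diols. It lies on chr1:180976210-181020904, minus strand. Normalized counts of Ephx1 were 312, 331, 381 and 283 in NTG and 1183, 1317 and 984 in mNrf2-TG. The lowest mNrf2-TG library, number 19, was still well above the highest NTG library, NTG 3. Ephx1 rose 3.55-fold (95% confidence interval 2.95 to 4.28), from 327 ± 41.1 (SD, n = 4) to 1161 ± 167 (SD, n = 3; Log2FC 1.83, SE 0.12, edgeR adjusted p = 1.48e-05), and ranked 31 of all genes by p-value. Of its 50-base stretches 1.7% also occur in the pseudogene Gm36961, which overlaps Ephx1 on the same strand and shares 72 exonic bases with it.

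Ephx2 encodes soluble epoxide hydrolase, which opens the epoxides of arachidonic acid, signalling lipids that dilate coronary vessels. It lies on chr14:66084374-66124500, minus strand. Its normalized counts were 3480, 3723, 2843 and 3367 in NTG and 3421, 3057 and 3369 in mNrf2-TG. The mNrf2-TG values all fell within the range of the NTG values. The means were 3353 ± 371 (SD, n = 4) and 3282 ± 197 (SD, n = 3), with a Log2FC of -0.031 and a 95% confidence interval of -0.24 to 0.18 (edgeR adjusted p = 0.856).

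Ephx1 was also compared with Ephx2 within libraries. The log2 ratio of Ephx1 to Ephx2 counts was -3.479, -3.489, -2.9 and -3.571 in NTG and -1.532, -1.215 and -1.775 in mNrf2-TG, without overlap. The ratio was 3.61-fold higher in mNrf2-TG (exact permutation p = 0.0286, adjusted p = 0.0476). Ephx1 nevertheless stayed the less abundant of the pair, at 0.124 of the Ephx2 level per kilobase of exon in NTG and 0.448 in mNrf2-TG.

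**Figure D2:**
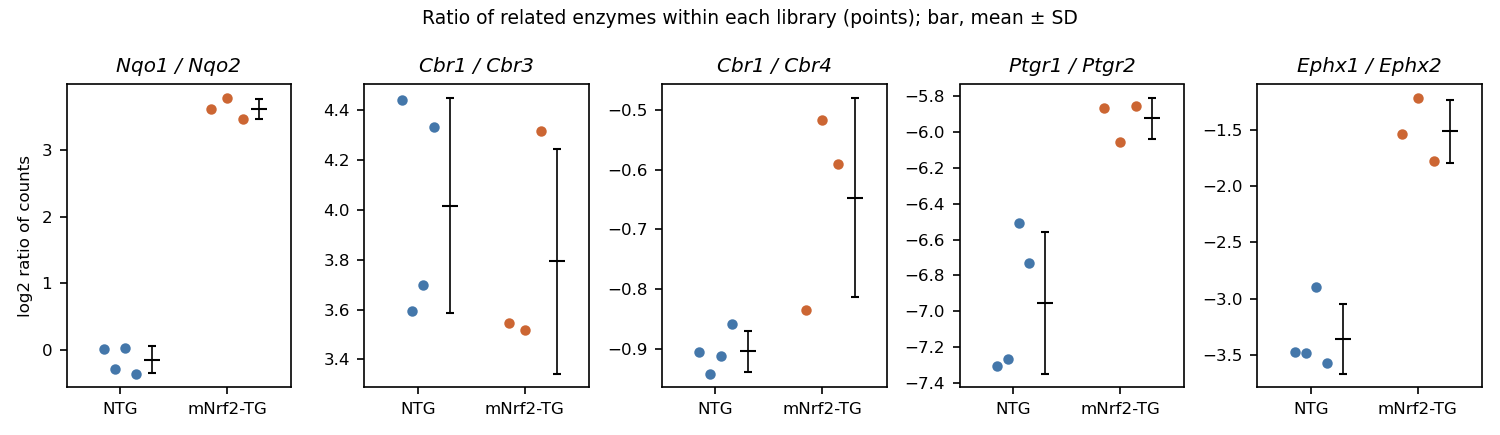
Points are log2 ratios of read counts of related enzymes within each library (vertical axis), for 5 pairs, each on an axis of its own, with bars for the mean ± SD and NTG and mNrf2-TG side by side. Nqo1 to Nqo2 and Ephx1 to Ephx2 show wide gaps between groups, 3.77 and 1.85 on the log2 scale, and Cbr1 to Cbr3 shows none.

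Por encodes cytochrome P450 oxidoreductase, the membrane-bound flavoprotein that passes electrons from NADPH to microsomal P450 enzymes and heme oxygenase and can also reduce quinones to semiquinones. It lies on chr5:135670033-135735326, plus strand. Por had 484, 447, 452 and 374 normalized counts in NTG and 463, 495 and 425 in mNrf2-TG. The groups overlapped, and the Log2FC was 0.070 with a 95% confidence interval of -0.15 to 0.29 (edgeR adjusted p = 0.678).

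**Figure D3:**
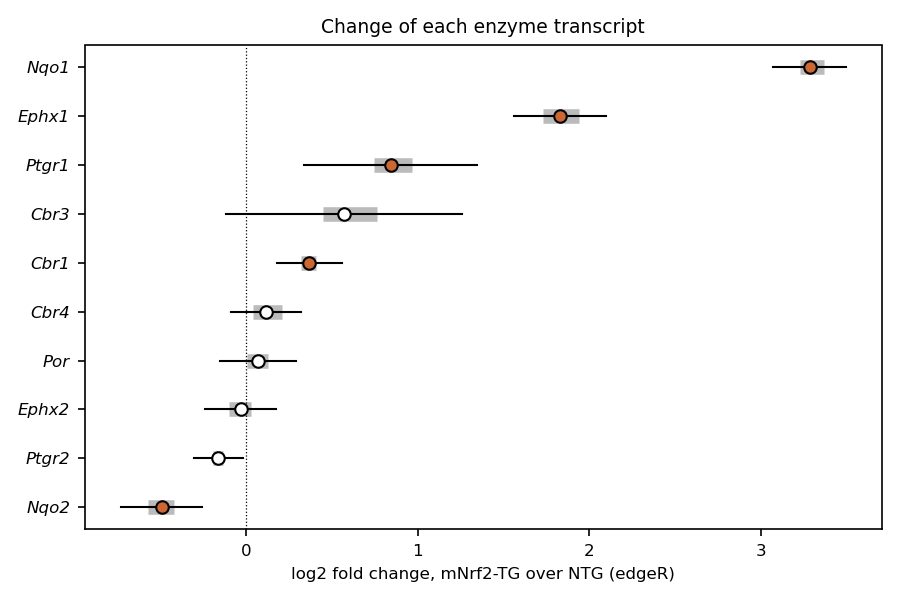
Each row is an enzyme, and the horizontal axis is the Log2FC of mNrf2-TG against NTG from edgeR. Black lines are 95% confidence intervals, grey bars span the values obtained with any 1 library omitted, and filled points have an adjusted p under 0.05. Nqo1 at 3.28 and Ephx1 at 1.83 lie far to the right of the other 8 enzymes, which lie between -0.49 and 0.84.

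Levels were also compared between enzymes, as CPM divided by the kilobases of annotated exon (CPM per kilobase). In NTG hearts Ephx2 was highest at 179 ± 19.8 (SD, n = 4), followed by Ptgr2 at 63.7 ± 2.85, Nqo1 at 45.1 ± 5.12 and Ephx1 at 22.2 ± 2.8. Nqo2 (19.3 ± 2.5) and Por (14.5 ± 1.54) came next, and neighbours from Ephx1 to Por overlapped between libraries. Cbr1 (11.2 ± 0.528) and Cbr4 (8.55 ± 0.247) were lower, and Cbr3 (1.4 ± 0.394) and Ptgr1 (1.33 ± 0.333) were lowest and did not differ beyond their spread. In mNrf2-TG hearts Nqo1 stood first at 439 ± 26.0 (SD, n = 3), above Ephx2 at 176 ± 10.5, Ephx1 at 79.1 ± 11.4 and Ptgr2 at 56.9 ± 1.27. Below them Por (15.2 ± 1.15), Cbr1 (14.4 ± 0.916) and Nqo2 (13.7 ± 0.705) overlapped as neighbours, Cbr4 stood at 9.27 ± 1.11, and Ptgr1 (2.4 ± 0.203) and Cbr3 (2.11 ± 0.496) were again lowest and overlapped. With the longest coding transcript as the length, the Cbr1 level in NTG was 23.1 instead of 11.2, the Ptgr2 level 119 instead of 63.7 and the Por level 22.1 instead of 14.5. This placed Cbr1 above Por and Nqo2 in both groups, Por above Nqo2 in NTG and Ptgr2 above Ephx1 in mNrf2-TG.

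**Figure D4:**
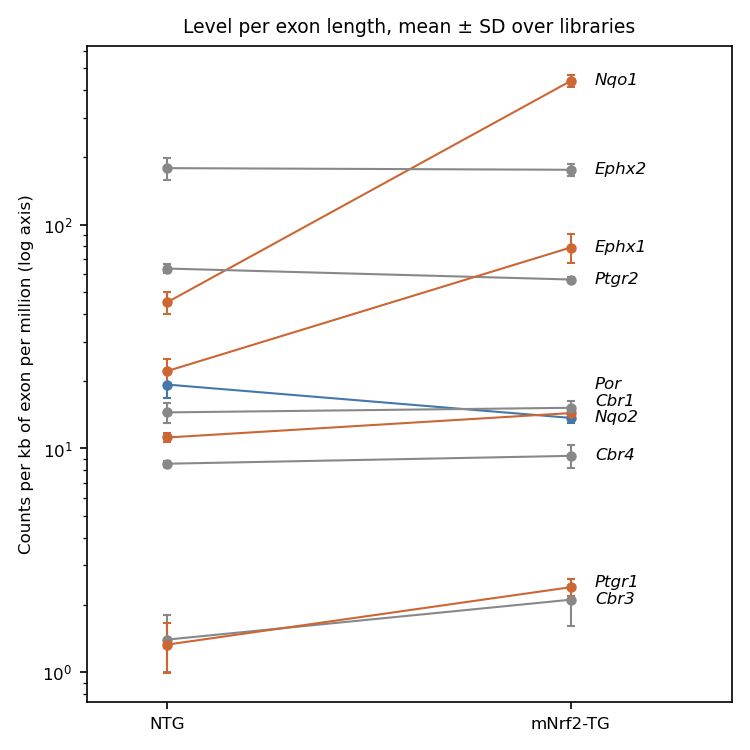
Points are mean levels of the 10 enzymes in CPM per kilobase of exon (vertical logarithmic axis) in NTG and mNrf2-TG, with SD as error bars, and lines join the groups; orange marks enzymes that rose, blue the one that fell and grey those that did not pass. Nqo1 moves from the third place (45.1) to the first (439) between the groups, while Ephx2 stays near 179 and 176.

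Together the 10 enzymes made up 1060–1222 CPM in NTG and 1780–1855 CPM in mNrf2-TG. Nqo1 took 5.22–6.86% of these reads in NTG and 36.2–39.2% in mNrf2-TG. Profiles over the 7 libraries were also compared, among genes with at least 10 reads in every mNrf2-TG library. By the root-mean-square distance of log2 values from the NTG mean, nearest to Nqo1 were Gstm1 (0.076), Gstm3 (0.154), Map1a (0.196), Gstm2 (0.235) and Nfe2l2 (0.247). This distance follows mostly the size of the difference between groups, so it picks genes with a Log2FC near that of Nqo1. Whether these genes are regulated together was not tested. Gstm1, Gstm2 and Gstm3 are glutathione transferases of the mu class, whose paralogs can share reads, and Map1a is a microtubule-associated protein. Gstm1, the nearest, had 1706, 1911, 1722 and 1696 reads in NTG and 14688, 18127 and 18245 in mNrf2-TG (Log2FC 3.23, SE 0.077).

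Related enzymes were counted in 6 lists, beside the 17.2% of all genes that passed in either direction, 8.48% higher and 8.73% lower, and shares in lists this short near those values are no result about the lists. Of 12 aldo-keto reductases in the table, which reduce aldehydes and ketones with NADPH, 2 rose and 0 fell, with a median Log2FC of 0.36. Akr1a1, aldehyde reductase, rose from 1808 ± 61.4 (SD, n = 4) to 2375 ± 25.2 (SD, n = 3) normalized counts (Log2FC 0.39, edgeR adjusted p = 0.00301). Akr1b10 rose from 628 ± 32.2 (SD, n = 4) to 838 ± 72.8 (SD, n = 3; Log2FC 0.42, edgeR adjusted p = 0.0081). Both increases were of the size seen for Cbr1 and well under that of Nqo1.

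Of 16 other short-chain reductases, 2 rose (Rdh13, Log2FC 0.47, and Dhrs7c, 0.29) and 2 fell (Dhrs3, -0.44, and Hsd17b10, -0.30). Rdh13, Dhrs3 and Dhrs7c act on retinoids or related lipids, and Hsd17b10 is a mitochondrial dehydrogenase of isoleucine and steroid metabolism. Leaving out 1 library brought the 4 calls down to 2 without NTG 1, mNrf2-TG 17 or mNrf2-TG 18 and to 1 without NTG 2. Among 7 quinone and enone reductases of the zinc-free medium-chain family, Zadh2, the third prostaglandin reductase, rose from 931 ± 68.6 (SD, n = 4) to 1181 ± 19.7 (SD, n = 3) normalized counts (Log2FC 0.34, edgeR adjusted p = 0.0128) and the other 6 did not pass.

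Of 4 further epoxide hydrolases or related proteins (Ephx3, Ephx4, Lta4h and Mest), 0 passed in edgeR and 0 in DESeq2, and 1, Ephx4 with 0 to 3 reads per library, had an unadjusted p under 0.05. Of the P450 epoxygenases that make the substrates of Ephx2, 2 of 14 listed were in the table (Cyp2j6 and Cyp2j9), and 0 passed in edgeR, 0 in DESeq2 and 0 at an unadjusted p under 0.05. Among 14 diflavin reductases and electron donors or acceptors of Por, 3 rose and 0 fell. Cyb5a, cytochrome b5, which also hands electrons to P450 enzymes, rose 2.22-fold, from 561 ± 30.0 (SD, n = 4) to 1246 ± 44.4 (SD, n = 3) normalized counts (Log2FC 1.15, SE 0.070, edgeR adjusted p = 8.15e-06). The cytochrome b5 reductases Cyb5r1 (Log2FC 0.80, edgeR adjusted p = 0.000555) and Cyb5r3 (Log2FC 0.48, edgeR adjusted p = 0.00449) rose as well. Of the other cytochrome b5 and cytochrome b5 reductase genes in the list, Cyb5b, Cyb5r2 and Cyb5r4 did not pass.

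**Figure D5:**
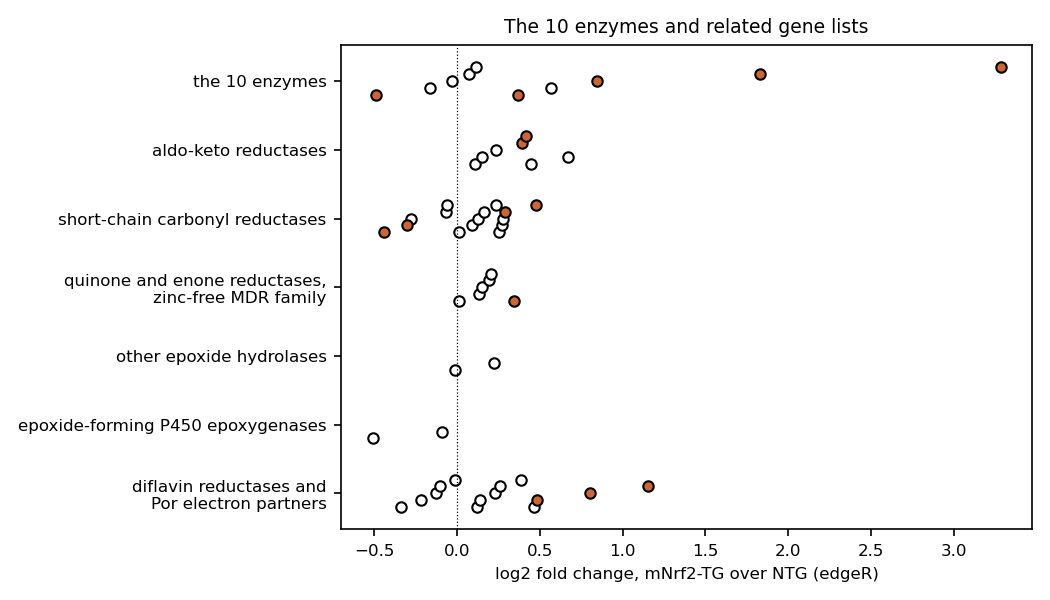
Each point is a gene of the 10 enzymes or of a related list, and the horizontal axis is the Log2FC of mNrf2-TG against NTG; filled points have an adjusted p under 0.05. Genes with a mean under 10 normalized counts in both groups are not drawn. Apart from Nqo1 and Ephx1, Cyb5a at 1.15 is the farthest filled point to the right.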

How the data were processed

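Poly(A) RNA of 7 hearts (4 NTG, 3 mNrf2-TG) was read in single 50-base reads after a stranded library kit. The authors aligned reads with Novoalign 2.08.01 and deposited raw read counts per gene, which were used here. They also deposited log2-scale rlog values from DESeq2 1.32.0, used as an alternative, and the authors' comparison (mean signal over libraries, fold changes, standard errors and p-values), which served only to check the join of the tables (means differed by at most 0.00308 of their value). The methods name both hg19 and mm10 as reference; the counting program and its use of strand are not given in the sources used here. The table had 14665 entries; 24 repeats of a gene were removed, and 14637 of 14641 genes had a summed count above 1 and were tested. Positions are those of GENCODE M21 (GRCm38), and promoter windows are from RefSeq.

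Counts were fitted in edgeR 4.0.16 (R 4.3.3) with TMM factors (0.967 to 1.03) and quasi-likelihood F-tests on genotype alone, with Benjamini-Hochberg adjustment over all 14637 genes. A gene that passed an adjusted p under 0.05 is said to have risen or fallen. Normalized counts are scaled to the mean effective library size, 7527915. The 95% confidence intervals come from the fit. The edgeR p-values judge the difference between groups against the spread between libraries, with 1 library per mouse. Ratios within a library used counts plus 0.5 and an exact permutation test. In simulated counts, 200 of 14524 genes were given a Log2FC of 1.5 in either direction, drawn from genes with an NTG mean of at least 10 normalized counts. Of the changed genes 96.5% were recovered, and 3.5% of calls were false. The simulated counts were drawn with the dispersion of the fit and without its gene-wise quasi-likelihood spread. These rates therefore hold for such counts and need not hold for the real libraries. Smaller changes, such as those of Cbr1, Nqo2 and Ptgr1, were not simulated, so their recovery is unknown. The text names the 10 enzymes, genes overlapping them, Nfe2l2, the called genes of the related lists (up to 6 each), and the 5 genes nearest to Nqo1. Marker genes come from lists fixed by cell type. Named in addition after their values were seen were the members of the lists with 0 calls and the uncalled cytochrome b5 genes. The enzymes and lists were chosen with earlier results of these data known. Alternatives were DESeq2 1.42.0, limma 3.58.1 (voom, and limma on rlog values), other scalings and filters, and leaving out each library. The longest coding transcript as the length was added after the data were seen. Python 3.11.15 with pandas 2.3.3 and matplotlib 3.10.9 made the tables and plots.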

Additional observations from a re-analysis of the deposited data

Results flagged for a closer look

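The log2 ratio of Ephx1 to Ephx2 in NTG 3 was -2.9, apart from the other NTG libraries at -3.479, -3.489 and -3.571. Its gap to the nearest of them, relative to the range of the group, passed the 95% critical value of Dixon's test. In all, 15 groups of 4 NTG values were tested in this way and 1 passed, and chance passes about 1 in 20 such groups. The value of NTG 3 remained below every mNrf2-TG library.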

How the results depend on the processing

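Under the alternatives that kept all 7 libraries, all 5 calls were kept, including DESeq2, limma-voom and other scalings and filters. Nqo1 and Ephx1 passed in all 15 alternatives, with Log2FC of 2.16 to 3.37 and 1.15 to 1.94, the lowest from rlog values, which shrink differences. Leaving out each library in turn gave 3 to 5 enzymes called, 2 to 4 higher and 0 to 1 lower. The count was 3 without each mNrf2-TG library; the number called higher was 2 without mNrf2-TG 19, and the number called lower was 0 without mNrf2-TG 17 or 18. Over all genes, 1373 (without mNrf2-TG 17) to 2950 (without NTG 3) were called, 704 to 1471 higher and 669 to 1479 lower. Of the short-chain reductases 1 to 4 were called. The Log2FC of Ephx2, which was not called, ranged from -0.102 to 0.0292 and was above 0 without NTG 2 (0.0292) and without mNrf2-TG 18 (0.0178). Those of Por and Cbr4, also not called, ranged from 0.0027 (without NTG 4) to 0.129 (without mNrf2-TG 19) and from 0.0394 (without mNrf2-TG 17) to 0.207 (without mNrf2-TG 18). The difference in the log2 ratio of Cbr1 to Cbr3 ranged from -0.483 (without mNrf2-TG 19) to -0.081 (without NTG 1). Differences in log2 ratio ranged from 3.69 to 3.84 for Nqo1 to Nqo2, 0.192 to 0.351 for Cbr1 to Cbr4 and 1.71 to 2.01 for Ephx1 to Ephx2. For these 3 pairs the adjusted p was then 0.0833 to 0.125, since 6 libraries cannot give an exact p under 0.1 (without an NTG library) or 0.0667 (without a mNrf2-TG library). The depth limits Cbr3 and Ptgr1, with 8 to 47 reads per library. No paired analysis was possible because the groups share no replicate numbers.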
